A study of Mus musculus with 10 samples.

Results

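Histone deacetylases and the enzymes and readers of DNA methylation were followed in mouse visual cortex that had lost, or kept, its main eye input. The members are 9 genes: the deacetylases Hdac1, Hdac2, Hdac3, Hdac5 and Hdac6, the DNA methyltransferases Dnmt1 and Dnmt3a, and the methyl-CpG-binding proteins Mbd1 and Mbd2. Every non-control probe set annotated with exactly 1 gene symbol, that symbol being one of these, was taken. This gave 9 of 8251 genes measured under 1 symbol, with 11 of 12422 probe sets, 1 for each gene except Dnmt1 and Dnmt3a, which had 2 each. No probe set annotated with several symbols held a member.

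All samples came from wild-type C57Bl6 mice in which one eye had been enucleated at postnatal day 14. Visual cortex was dissected at postnatal day 18, which is 4 days later, from coronal sections. The 5 deprived samples are cortex contralateral to the enucleated eye and the 5 non-deprived samples are cortex ipsilateral to it, with 1 oligonucleotide array per sample. Every sample therefore comes from an operated animal, and no intact cortex was compared. The labels speak of pooled samples and name 4 mice without saying how these were divided, so the p-values measure only the spread between these samples, which may in part be technical. Most retinal axons cross the midline in the mouse, and contralateral cortex is the side that loses the larger part of its input.

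Histone deacetylases remove acetyl groups from histone tails and, in many cases, from other proteins, and act mostly as transcriptional corepressors. DNA methyltransferases place methyl groups on cytosines, above all at CpG sites, and methyl-CpG-binding proteins read these marks and recruit deacetylase complexes to them. In visual cortex, histone acetylation is known to respond to visual experience, and inhibitors of deacetylases have been used to restore plasticity in adult animals. The question here is whether the transcripts of this machinery differed between deprived and non-deprived cortex. Transcript levels do not report enzyme activity, and no mark on histones or DNA was measured.

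The values are MAS5 signal intensities in arbitrary units, used as the authors deposited them. Array medians lay between 191 and 209, and arrays of the same group correlated at 0.957 to 0.979 over the tested probe sets (Pearson, across probe sets, which are not independent replicates). Differences are given as deprived minus non-deprived on the log2(signal + 16) scale. Of the 12422 probe sets, the 7453 whose mean lay above the 40th percentile, a signal of about 115, were tested with limma. Of the 11 member probe sets 8 were tested, 1 for each gene but Mbd2, and the other 3 lay below that limit. With 5 arrays a group, the number of arrays limits the precision.

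No member passed the test. None of the 8 tested probe sets had a limma adjusted p below 0.05 over all tested probe sets, and neither did any other probe set on the array (0 of 7453, 0%). The adjusted p of the members ran from 0.992 to 0.997. At an unadjusted limma p under 0.05 there was 1 member, Mbd1, of 8, against 357 of 7453 probe sets or 4.79% (176 or 2.36% of them lower, as Mbd1 was, and 181 or 2.43% higher). The members' estimates lay on both sides of 0, with 5 below and 3 above, where 48.0% of all tested probe sets were below. Their median was -0.013 against 0.0066 for all tested probe sets, and the median of their sizes without sign was 0.10 against 0.09. No member had all deprived arrays on one side of all non-deprived arrays, as 71 tested probe sets (0.953%) did.

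**Figure D1:**
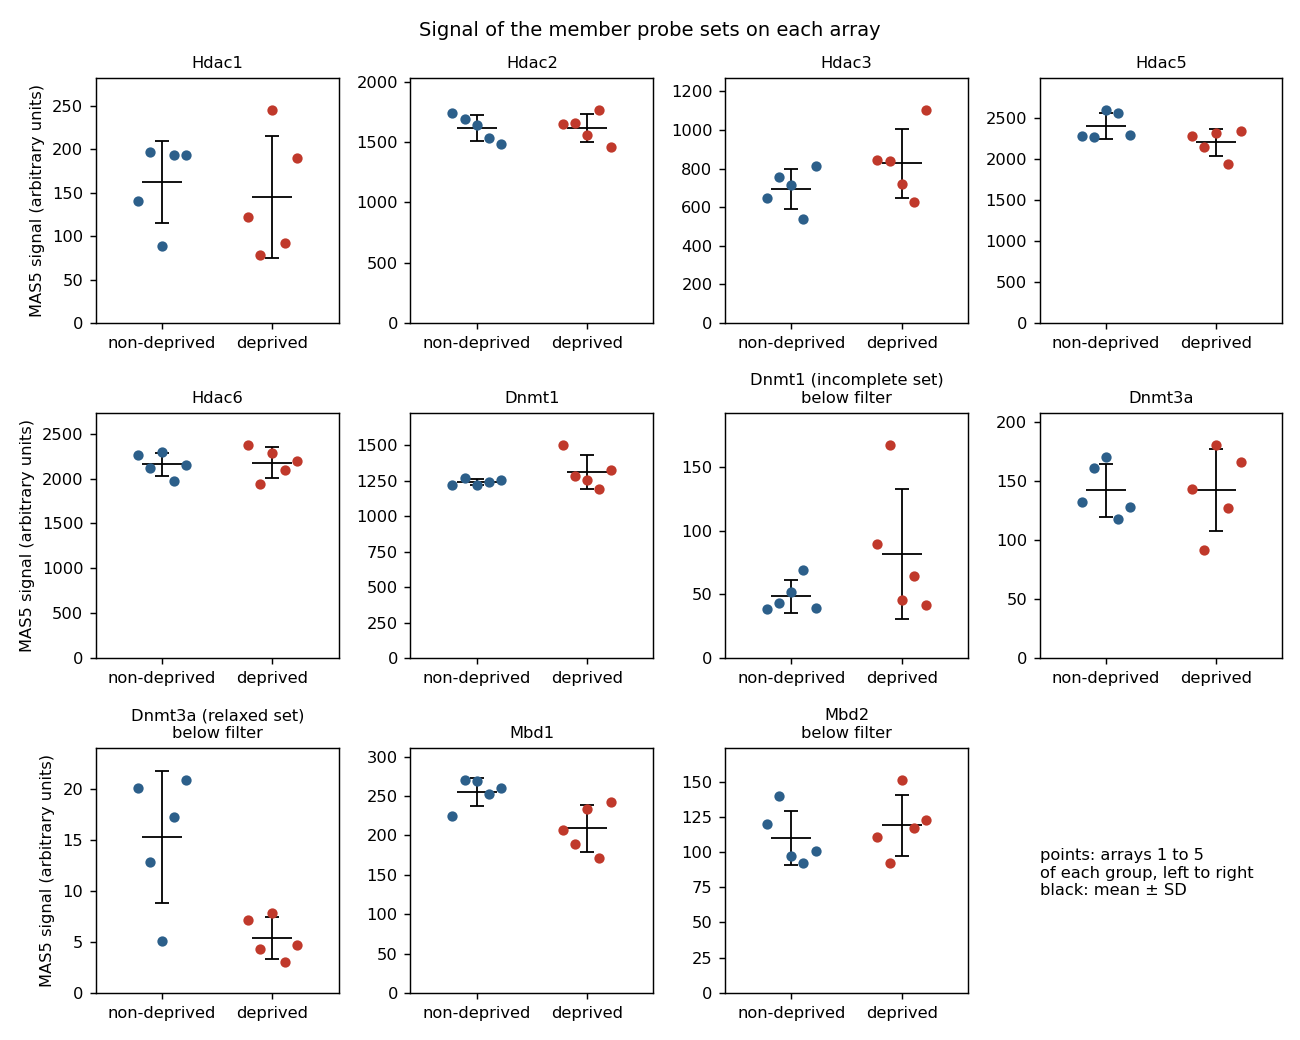
Signal (MAS5, arbitrary units, axes from 0) of each of the 11 member probe sets on the 5 non-deprived (blue) and 5 deprived (red) arrays, with the mean and SD of each group in black. The groups overlap in every panel; Mbd1 has 3 deprived arrays below the lowest non-deprived one.

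Hdac1, Hdac2 and Hdac3 are the class I deacetylases of this set, enzymes of the nucleus. Hdac1 and Hdac2 are close relatives that work in the same corepressor complexes, among them Sin3 and NuRD, and Hdac3 is the catalytic subunit of the NCoR and SMRT complexes. Hdac2 had almost the same mean in both groups. Its signals were 1647, 1657, 1562, 1764 and 1457 in deprived replicates 1 to 5 and 1741, 1695, 1643, 1532 and 1485 in non-deprived replicates 1 to 5. Both the highest and the lowest of these 10 values were deprived arrays, so the non-deprived range lay inside the deprived one. The means were 1617 ± 115 and 1619 ± 108 (SD, n = 5 each), and the log2 difference was -0.0018 ± 0.08 (SE) with a 95% interval from -0.17 to 0.17. That interval allows a change of up to 1.13-fold either way.

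Hdac1 was read much less precisely. Its signals were 122, 78.3, 245, 91.9 and 190 in deprived cortex and 141, 197, 88.9, 193 and 193 in non-deprived cortex. The deprived arrays divided into low values in replicates 2 and 4 and high values in replicates 3 and 5, and non-deprived replicate 3 lay as low as the former. The log2 difference was -0.20 ± 0.29 (SE), with an interval from -0.82 to 0.41. It was -0.04 without deprived replicate 2 and -0.40 without deprived replicate 3. Only 3.22% of tested probe sets had a larger residual SD than the 0.54 of Hdac1, and the interval allows a change of up to 1.76-fold.

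Hdac3 had the largest positive estimate of the tested members. Deprived arrays gave 845, 842, 719, 625 and 1102 and non-deprived arrays 649, 754, 715, 538 and 811. Deprived replicates 1, 2 and 5 exceeded every non-deprived array, while replicate 4 lay below the non-deprived median. The means of 827 ± 180 and 694 ± 105 (SD, n = 5 each) differ by 19.2%. The log2 difference of 0.24 ± 0.15 (SE; interval -0.08 to 0.55) did not pass, with a limma adjusted p of 0.992. It was 0.13 without deprived replicate 5, the highest array.

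Hdac5 and Hdac6 belong to class II. Hdac5 is a class IIa enzyme of neurons that represses MEF2 target genes and leaves the nucleus when calcium signalling leads to its phosphorylation. Its signals were 2287, 2150, 2314, 1943 and 2340 in deprived cortex against 2284, 2276, 2596, 2558 and 2298 in non-deprived cortex. Deprived replicates 2 and 4 lay below all non-deprived arrays, and the other three lay within the non-deprived range. The means were 2207 ± 165 and 2402 ± 160 (SD, n = 5 each), and the log2 difference of -0.12 ± 0.08 (SE; interval -0.29 to 0.05) did not pass. Hdac6 is a largely cytoplasmic deacetylase whose best-known substrate is alpha-tubulin. It had 2371, 1937, 2288, 2100 and 2196 in deprived arrays and 2265, 2117, 2295, 1968 and 2156 in non-deprived arrays. Its groups covered nearly the same range, with means of 2178 ± 169 and 2160 ± 130 (SD, n = 5 each) and a log2 difference of 0.01 ± 0.08 (SE; interval -0.16 to 0.18).

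Dnmt1 is the maintenance methyltransferase, which copies methylation to the new strand after replication and is also present in neurons. Its signals were 1501, 1287, 1253, 1192 and 1324 in deprived cortex and 1222, 1270, 1218, 1242 and 1259 in non-deprived cortex. The non-deprived arrays lay close together, with a coefficient of variation of 1.83% against 8.91% in the deprived group, where replicate 1 was highest. The means were 1312 ± 117 and 1242 ± 22.7 (SD, n = 5 each), and the log2 difference was 0.07 ± 0.08 (SE; interval -0.10 to 0.24). This interval reaches to 1.18-fold at most, and without deprived replicate 1 the difference was 0.02. A second Dnmt1 probe set, an incomplete one, was dim and was not tested. It read 89.5, 167, 45.8, 64 and 41.8 in deprived arrays and 38.1, 43.5, 51.4, 69.2 and 39.1 in non-deprived arrays. The higher deprived mean of this set, 81.6 against 48.3, came with high values in deprived replicates 1 and 2 and with overlap of the others.

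Dnmt3a sets methylation on sites that had none and is the main such enzyme of postnatal neurons. On its brighter probe set the signals were 143, 91.3, 180, 127 and 166 in deprived cortex and 132, 161, 170, 118 and 128 in non-deprived cortex. Deprived replicates 2 and 3 held the lowest and the highest of these values, and the means were both 142 (SD 34.7 and 22.5, n = 5 each). The log2 difference of -0.02 ± 0.18 (SE) had an interval from -0.42 to 0.37. The second probe set, of relaxed design rules, read 7.2, 4.3, 7.9, 3.0 and 4.7 in deprived arrays and 20.1, 12.9, 5.1, 17.3 and 20.9 in non-deprived arrays. All deprived values lay below the non-deprived median, and non-deprived replicate 3 lay among them. These signals are around or below 16, the value that 10% of the deposited signals do not exceed. The brighter probe set of the same gene showed no such difference, though whether both read the same transcripts is not known here. The dim set lay below the signal limit. In a limma fit of all probe sets without that limit, its unadjusted p was 0.00863 and its adjusted p 0.959. The difference on the log2 scale depended on the pseudocount (-0.52 with 16, -1.27 with 1 and -0.19 with 64).

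**Figure D2:**
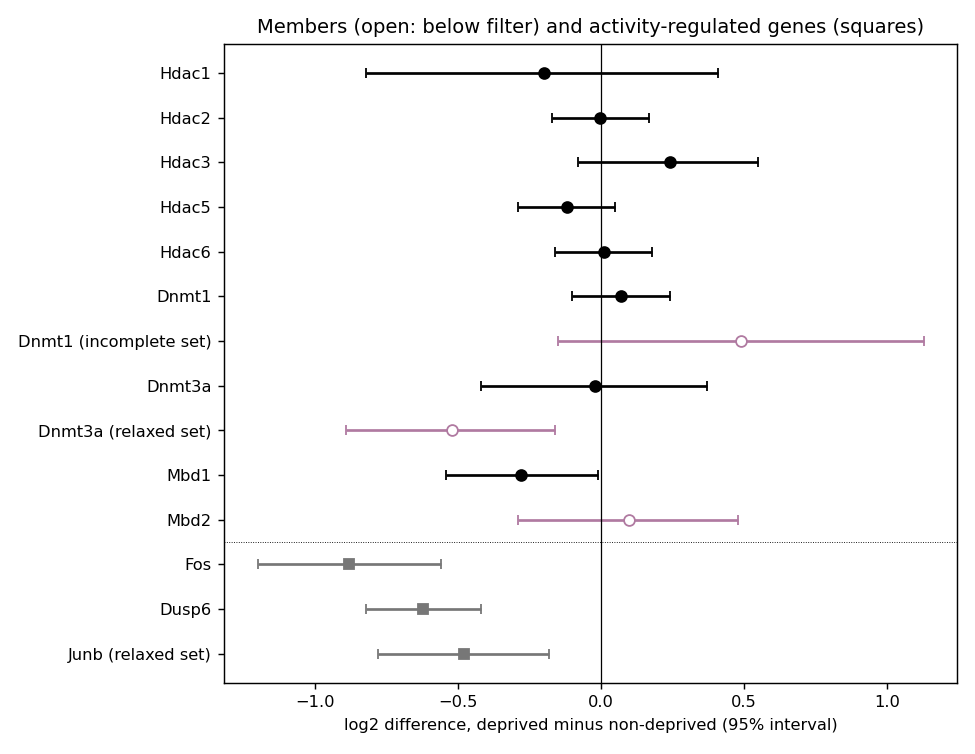
Log2 difference (deprived minus non-deprived) with its 95% interval for the 8 tested member probe sets (filled circles), the 3 members below the signal limit (open circles) and, for scale, Fos, Dusp6 and Junb (grey squares). Hdac2, Hdac5, Hdac6 and Dnmt1 have the narrow intervals, all reaching no further than 1.23-fold, and Mbd1 alone of the tested members has an interval, -0.54 to -0.01, on one side of 0.

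The promoters of the methyltransferases and of Hdac2 are shown as sequence because CpG sites, the substrate of the first and the mark read by the MBD proteins, differ widely between them. The 250 bases before annotated starts were taken from RefSeq (GRCm38.p6), and 9 such windows matched 5 members (Hdac2, Hdac5, Hdac6, Dnmt1 and Dnmt3a); windows of the others were not used here. The median over all 32851 windows was 6 CpG sites. In the first 3 lines the CpG sites are in capitals. The outermost Dnmt1 start (chr9:20959889-20960138, minus strand) has 2 CpG sites and the innermost (chr9:20952624-20952873, minus strand) has 26. A window between them, not shown, has 7. The arrays cannot resolve these alternative starts of 1 gene. The innermost window lies downstream of the other Dnmt1 starts, so it may hold transcribed bases as well as promoter. Hdac2 (chr10:36974294-36974543, plus strand) has 27.
Dnmt1, outermost start: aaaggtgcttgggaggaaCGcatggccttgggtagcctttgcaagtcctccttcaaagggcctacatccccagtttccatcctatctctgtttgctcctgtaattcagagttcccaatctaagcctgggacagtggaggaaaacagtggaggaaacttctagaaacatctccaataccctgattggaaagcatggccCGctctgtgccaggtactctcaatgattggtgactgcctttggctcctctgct
Dnmt1, innermost start: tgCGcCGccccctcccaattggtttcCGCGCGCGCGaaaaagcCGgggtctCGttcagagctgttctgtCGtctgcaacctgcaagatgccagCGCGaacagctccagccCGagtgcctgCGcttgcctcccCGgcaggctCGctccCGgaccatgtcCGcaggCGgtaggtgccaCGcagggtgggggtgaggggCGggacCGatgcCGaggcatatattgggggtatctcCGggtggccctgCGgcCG
Hdac2: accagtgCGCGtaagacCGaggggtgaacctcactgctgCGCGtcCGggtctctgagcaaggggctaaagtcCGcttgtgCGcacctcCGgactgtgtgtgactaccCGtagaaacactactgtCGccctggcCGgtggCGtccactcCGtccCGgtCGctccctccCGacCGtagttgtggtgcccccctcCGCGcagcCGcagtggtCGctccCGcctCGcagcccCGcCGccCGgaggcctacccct
Dnmt3a, with the Egr motif in capitals: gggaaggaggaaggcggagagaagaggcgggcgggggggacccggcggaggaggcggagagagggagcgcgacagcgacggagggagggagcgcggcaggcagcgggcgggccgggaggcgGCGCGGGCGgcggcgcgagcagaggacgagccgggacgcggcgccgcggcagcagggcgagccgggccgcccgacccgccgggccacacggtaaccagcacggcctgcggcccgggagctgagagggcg
The Dnmt3a window (chr12:3806910-3807159, plus strand, 40 CpG sites) is shown because it was the 1 window of the 9 that held a searched motif. Another Dnmt3a window (chr12:3806730-3806979, plus strand) ends inside it, so the shown window may also hold transcribed bases. Its GC content is 80.8%, whereas the shares given below are over windows of any GC content. Both strands were searched for the CRE (TGACGTCA), the AP-1 site (TGANTCA), the Egr site (GCGNGGGCG) and the CArG box, which are bound by CREB, by Fos and Jun proteins, by Egr proteins and by SRF. Over all windows the shares with a match were 1.55%, 6.75%, 4.70% and 1.47% in that order. Apart from the Egr match in Dnmt3a, these letters did not occur in the member windows, which says nothing on binding there or elsewhere.

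Mbd1 and Mbd2 bind methylated CpG sites and repress transcription, Mbd2 as a subunit of a NuRD complex and Mbd1 with histone methyltransferases such as Setdb1. Mbd1 had the largest negative estimate among the tested members. Its signals were 207, 189, 234, 171 and 243 in deprived cortex and 225, 270, 269, 252 and 260 in non-deprived cortex. Every deprived array lay below the non-deprived median, and replicates 1, 2 and 4 lay below all non-deprived arrays; the overlap came from non-deprived replicate 1, at 225. The means were 209 ± 30.0 and 255 ± 18.3 (SD, n = 5 each), which is 18.2% lower in deprived cortex (-18.2%). The log2 difference was -0.28 ± 0.12 (SE; interval -0.54 to -0.01). Its unadjusted limma p of 0.0404 became an adjusted p of 0.992 over all tested probe sets, so the difference did not pass. The unadjusted p went above 0.05 when any 1 of 7 arrays was left out (deprived replicates 1, 2 or 4, or non-deprived replicates 2, 3, 4 or 5), reaching 0.102 without deprived replicate 4.

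Mbd2 lay just below the signal limit and was not tested. It read 111, 92.1, 151, 117 and 123 in deprived arrays and 120, 140, 97.3, 92.6 and 101 in non-deprived arrays. The groups were mixed, with means of 119 ± 21.5 and 110 ± 19.5 (SD, n = 5 each) and a log2 difference of 0.10 with an interval from -0.29 to 0.48. Without deprived replicate 3 the difference was 0.01.

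The members did not share one order of the arrays. Within the deprived group, replicate 4 gave the lowest value for Hdac3, Hdac5, Dnmt1 and Mbd1, and replicate 2 that for Hdac1, Hdac6 and Dnmt3a, so that these 2 arrays held 7 of the 8 lowest values. Replicate 4 was nevertheless the highest deprived array for Hdac2. Of all arrays, deprived replicate 4 had the largest share of signals under 16 (11.87%) and deprived replicate 5 the smallest (6.46%). The part of this in the members' values was not tested. In the non-deprived group the lowest values were spread over all 5 arrays, with 3 of them in replicate 4. The residual SD was smaller than in over 90% of tested probe sets for Dnmt1 (96.4% had a larger one), Hdac2 (94.0%), Hdac6 (93.6%) and Hdac5 (93.1%). It was closer to the middle for Mbd1 (71.5%), and larger than usual for Hdac3 (25.9%), Dnmt3a (21.9%) and Hdac1 (3.22%).

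**Figure D3:**
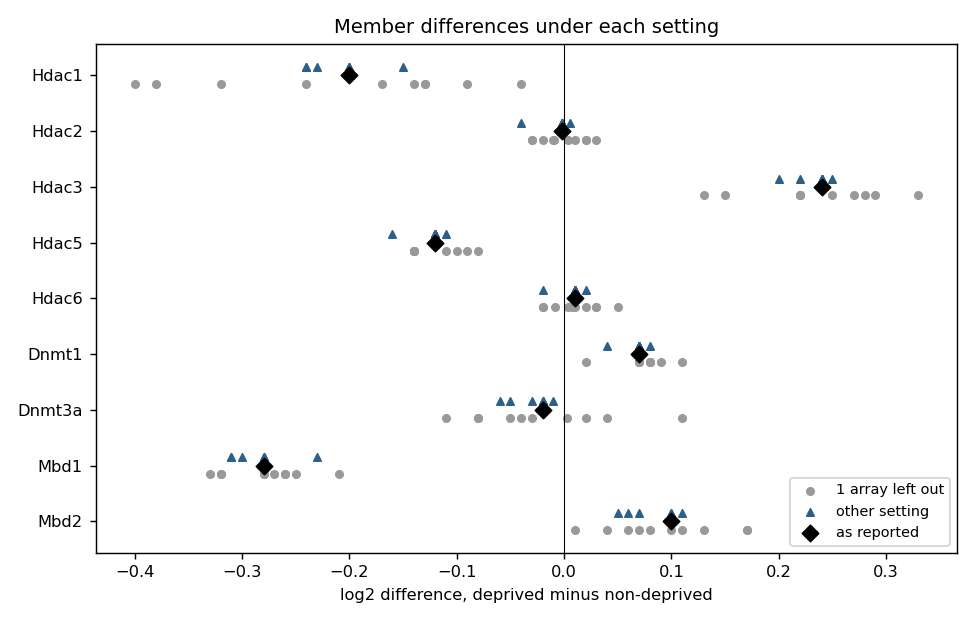
Log2 difference (deprived minus non-deprived) of the 9 genes, each on its main probe set, as reported (black diamonds), under the other settings of normalization, pseudocount, filter or model (blue triangles) and with 1 array left out (grey circles). Hdac3, Hdac5, Dnmt1, Mbd1, Hdac1 and Mbd2 keep their sign throughout, and Hdac2, Hdac6 and Dnmt3a lie on both sides of 0.

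Activity-regulated genes on the same arrays give a scale for these differences. They were chosen with earlier results of these data known, so their lower values are a reference and not a test. Fos, an AP-1 transcription factor, had signals of 2069 ± 424 in deprived and 3792 ± 629 in non-deprived cortex (SD, n = 5 each; log2 -0.88 ± 0.15 SE). Dusp6, a phosphatase that acts on ERK, had a log2 difference of -0.62 ± 0.09 (SE) and Junb had -0.48 ± 0.14 on a probe set of relaxed design rules and -1.0 ± 0.15 on an incomplete one. On these sets the groups did not overlap, although none passed over all probe sets (limma adjusted p of 0.105 for Fos, 0.0503 for Dusp6, and 0.992 and 0.0503 for the Junb sets). Second sets of Fos and Dusp6 were dim and not tested, and their groups overlapped. Deprived and non-deprived means were 97.1 and 86.5 for Fos (log2 0.12 ± 0.21 SE) and 33.4 and 43.9 for Dusp6 (-0.41 ± 0.34). The values below are those of the bright sets. Without non-deprived replicate 1, Fos and Dusp6 both passed (limma adjusted p of 0.0303). Neither passed with any other single array left out. Over the 10 single omissions the highest limma adjusted p was 0.396 for Fos and 0.249 for Dusp6. The 95% intervals ran from -1.20 to -0.56 for Fos, from -0.82 to -0.42 for Dusp6 and from -0.78 to -0.18 for the relaxed Junb set. That of Hdac1 overlaps all 3 and that of Mbd1 overlaps those of Dusp6 and Junb. Hdac5 overlaps Junb alone, Dnmt3a overlaps Junb and meets the end of Dusp6 at -0.42, and Hdac2, Hdac3, Hdac6 and Dnmt1 overlap none. These differences between genes were not tested.

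The wider machinery and markers of proliferating cells were described with 8 lists of 140 genes. Of these genes 89 were on the array and 69 were tested, each by its brightest probe set. The proliferating cell list held 18 of them, with 17 on the array and 10 tested. No gene of these lists passed (0 of 69 in limma), and 4, or 5.8%, had an unadjusted p under 0.05 against the 4.79% of all tested probe sets. These 4 were Kat2a, Ahcy, Setdb1 and the proliferating cell marker Mcm3. For none of the 69 did the groups separate. Of 4 other deacetylases on the array, 3 were tested: the sirtuins Sirt2 (log2 0.05 ± 0.09 SE), which acts on tubulin, and Sirt3 (0.0069 ± 0.10), which acts in mitochondria, and the class IIa enzyme Hdac7 (0.05 ± 0.08). Among 14 tested corepressor partners 6 estimates were below and 8 above 0, with a median of 0.04. Sin3a, the scaffold of an Hdac1 and Hdac2 complex, had a log2 difference of 0.12 ± 0.09, the histone-binding Rbbp4 -0.09 ± 0.08, Ing1 0.15 ± 0.12, and the NuRD ATPase Chd4 0.05 ± 0.11. Among 13 tested partners of class IIa enzymes, the MEF2 factors, 14-3-3 proteins and kinases, the median was -0.04. Mef2b had 0.19 ± 0.14, and the 14-3-3 genes Ywhah, Ywhab and Ywhag had -0.09 ± 0.08, 0.14 ± 0.13 and 0.01 ± 0.09 (SE). A second tested Ywhag probe set had 0.26 ± 0.29.

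Of the 8 tested histone acetyltransferases, the enzymes that oppose deacetylases, 2 estimates were below 0 and 6 above, with a median of 0.10. Kat2a (Gcn5) had signals of 310 ± 80.2 in deprived and 421 ± 59.8 in non-deprived cortex (SD, n = 5 each). Its log2 difference of -0.45 ± 0.17 (SE) had an unadjusted limma p of 0.0198 and did not pass. Hat1, Ncoa1 and the CREB-binding protein gene Crebbp had 0.20 ± 0.13, 0.14 ± 0.10 and 0.12 ± 0.15. Of 7 other DNA methylation genes on the array 4 were tested, with a median of 0.11. The glycosylase Mbd4, which repairs mismatches at methylated CpG sites, had 0.19 ± 0.11, with 4 of 5 deprived arrays above all non-deprived ones. Dmap1, a partner of Dnmt1, had 0.21 ± 0.20, Mbd6 -0.07 ± 0.14 and the NuRD subunit Mbd3 0.03 ± 0.08. Without non-deprived replicate 4 Dmap1 had 0.004, and without non-deprived replicate 3 Mbd6 had -0.003.

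The methyl donor cycle, which supplies the methyl group used by DNA methyltransferases, had 5 tested genes with a median of -0.0057. Ahcy, which clears the by-product of methylation, had 932 ± 109 in deprived and 1164 ± 145 in non-deprived cortex (SD, n = 5 each) and a log2 difference of -0.32 ± 0.11 (SE; unadjusted limma p of 0.00962). Of its 2 other probe sets neither showed this, with 0.02 ± 0.12 and 0.07 ± 0.15. Shmt2, Bhmt and Ahcyl1 had 0.17 ± 0.10, -0.30 ± 0.27 and 0.06 ± 0.07. Bhmt had -0.03 without deprived replicate 2 and -0.51 without deprived replicate 5. Histone methylation and heterochromatin genes had 12 tested members and a median of 0.01. Setdb1, a histone H3 methyltransferase that works with Mbd1, had 551 ± 88.5 against 790 ± 164 (SD, n = 5 each; log2 -0.49 ± 0.15 SE), an unadjusted limma p of 0.00534 and an adjusted p of 0.992. Its second probe set was dim, at 32.7 and 28.9. Cbx5 and the polycomb methyltransferase Ezh2 had 0.16 ± 0.09 and 0.20 ± 0.15, and Trim28, the corepressor that recruits Setdb1, had -0.05 ± 0.07 (SE). A second tested Cbx5 probe set had the opposite sign, with -0.10 ± 0.13.

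**Figure D4:**
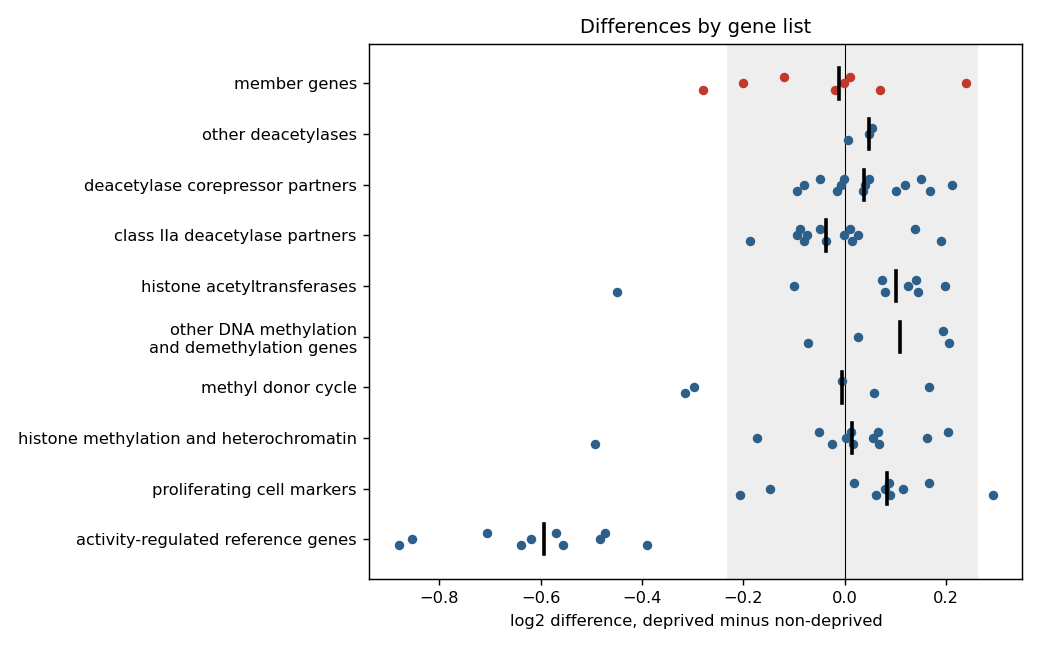
Log2 difference (deprived minus non-deprived) of each tested gene by list, with the list median as a black bar and the 5th to 95th percentile of all tested probe sets, -0.23 to 0.26, as a grey band. The medians of the members (red) and of the 8 lists of related genes and proliferating cell markers lie between -0.04 and 0.11. Setdb1 and Kat2a are their lowest points. The 10 activity-regulated genes lie between -0.88 and -0.39.

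Both groups carried neuronal transcripts. Snap25, a synaptic vesicle fusion protein, had means of 13053 in deprived and 12765 in non-deprived arrays, and Tbr1, of deep-layer neurons, 6307 and 6334. Other neuron markers differed more, in either direction. Deprived and non-deprived means were 499 and 617 for Camk2a, 506 and 594 for Nefm, and 369 and 295 for Neurod6. The summed signal of 10 measured neuron markers ran from 31090 to 36246 in deprived and from 31815 to 34943 in non-deprived arrays. Bright markers such as Snap25 weigh most in this sum. Sums of astrocyte (18834 to 22943 against 19831 to 25855), oligodendrocyte (19946 to 26132 against 17854 to 25766) and vascular markers (2210 to 2636 against 2087 to 2678) overlapped as well. The 10 microglia markers summed to 5695 to 6176 in deprived and 5174 to 5972 in non-deprived arrays, a ratio of means of 1.07. The 17 measured markers of proliferating cells, where Dnmt1 and Hdac1 are typically high, summed to 2986 to 3801 against 3046 to 3409. No marker was at 0 on all arrays, but not all were above the signal limit used for testing. Above it were 10 of 17 proliferating cell, 8 of 10 microglia, 8 of 9 vascular and 6 of 7 oligodendrocyte markers. All measured neuron and astrocyte markers were above it. The group labels can be assigned in 252 ways, so a two-sided exact permutation p cannot go below 0.00794; the lowest among the 6 lists was 0.0714 (microglia; 0.429 after Benjamini-Hochberg adjustment). Its part in the members' values was not tested. Of the 10 tested proliferating cell markers, 2 estimates were below 0 and 8 above, with a median of 0.08. Mcm3 had the highest log2 difference, 0.29 ± 0.13 (SE). The 2 below 0 were Pcna (-0.21 ± 0.14) and Cdc20 (-0.15 ± 0.13). The unadjusted limma p of Mcm3 was 0.0454 and its adjusted p 0.992. A second Mcm3 probe set was dim and not tested, with means of 56.5 in deprived and 51.0 in non-deprived arrays (log2 0.13 ± 0.33 SE). In bulk tissue, fewer cells of a type and less RNA per cell cannot be told apart.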

How the data were processed

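RNA of visual cortex was measured on 10 one-colour arrays, 1 per sample, with groups and replicate numbers read from the sample titles. The authors deposited 1 linear signal intensity for each of 12488 probe sets, of which 66 controls were left out. The signals were made with MAS5, per the submitters' processing notes. Their version and target intensity were not given in the sources used here. No detection calls were used. The mean signal without the highest and lowest 2% of values was 500.2 or 500.3 on every array. Differences are therefore relative to the whole array. The platform's gene table, with names brought up to date by Entrez number, gave 1 symbol to 10833 probe sets, several to 396 and none to 1193. Suffixes mark incomplete (i), relaxed (r), family (f) and group (g) probe sets, which are less specific. No coordinates belong to these values.

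Intensities were converted to log2(value + 16), 16 being the 10th percentile of the table. Probe sets below the 40th percentile of mean log2 value were left out of testing. Groups were compared with limma 3.58.1 in R 4.3.3 (lmFit, then eBayes with a trend in intensity). The threshold was a Benjamini-Hochberg adjusted p of 0.05 over all 7453 tested probe sets, with no covariate and no adjustment over the members alone; limma was tested on simulated data. Named are all member probe sets, from each list the 3 genes with the smallest p and the brightest, and Junb, Fos and Dusp6. Members and lists were chosen with earlier results of these data known. Alternatives were pseudocounts of 1 and 64, no filter or one at the 60th percentile, quantile normalization, median scaling, no trend, the replicate number as a block, and leaving out each array.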

Additional observations from a re-analysis of the deposited data

Results flagged for a closer look

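None of the 22 groups of member values (11 probe sets in 2 groups) held an array far from the other four. Over all 100 groups of 5 values looked at, 3 did, where chance gives about 1 in 20. Ahcyl1, of the methyl donor cycle, had 11079 in deprived replicate 2 against 9681 to 9860 in the others. Setdb1 had 704 in deprived replicate 3 against 491 to 547 in the others. Sirt2 had 2328 in non-deprived replicate 3 against 2753 to 2901 in the others.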

How the results depend on the processing

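No tested member passed an adjusted p of 0.05 in limma under any of the 18 alternatives (141 values, lowest adjusted p of 0.754), and the list counts stayed at 0 except for the activity-regulated genes, which had 1 past the threshold when 64 was the pseudocount or when the filter lay at the 60th percentile, 4 with the replicate block (Fos, adjusted p of 0.00498, and Dusp6, 0.0178, among them), and 0 to 4 with single arrays left out (4 without non-deprived replicate 1). The count of members at an unadjusted p under 0.05 was 0 with the filter at the 60th percentile, where Mbd1 and Hdac1 and the brighter Dnmt3a set were no longer tested, 2 (Mbd1 and Hdac3) with the replicate block, and 0 to 1 with single arrays left out. Without deprived replicate 4 that member was Hdac3 in place of Mbd1, and without the filter it was the dim Dnmt3a set. Without non-deprived replicate 1 the groups of 1 member, Mbd1, no longer overlapped (0 to 1 over the single omissions). For these unadjusted and overlap counts, the shares over all probe sets under the same settings were not counted. The counts are therefore not read as results about the members.

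Hdac2 turned to 0.006 under quantile normalization and Hdac6 to -0.02 under median scaling, as did Sirt3 (-0.03), Ywhag (-0.02) and Mbd3 (-0.009). With 1 array left out, Hdac2 ran from -0.03 to 0.03, Hdac6 from -0.02 to 0.05 and Dnmt3a from -0.11 to 0.11, Sirt2 from -0.0002 to 0.11, Sirt3 from -0.05 to 0.07, Chd4 from -0.03 to 0.13, Ywhag from -0.05 to 0.05 and Mbd3 from -0.03 to 0.07. The other members kept their sign but moved in size: Hdac1 from -0.40 to -0.04, Hdac3 from 0.13 to 0.33, Hdac5 from -0.14 to -0.08, Dnmt1 from 0.02 to 0.11 (its dim set from 0.23 to 0.64), the dim Dnmt3a set from -0.66 to -0.46, Mbd1 from -0.33 to -0.21 and Mbd2 from 0.01 to 0.17. So did Dmap1 (0.004 to 0.29), Mbd6 (-0.15 to -0.003), Bhmt (-0.51 to -0.03), Ywhab (0.02 to 0.21), Crebbp (0.03 to 0.22) and Hdac7 (0.01 to 0.09). The dim Dnmt3a set had -1.27 with a pseudocount of 1 and -0.19 with 64. Ratios of summed markers turned under median scaling for neurons (0.976) and proliferating cells (0.998), and with single arrays left out ran from 0.981 to 1.02 for neurons, 0.939 to 1.01 for astrocytes, 0.987 to 1.09 for oligodendrocytes and 0.984 to 1.05 for proliferating cells. The causes were not tested.

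The labels do not say that same-numbered samples share animals. Deviations from the group means correlated over 0.1 in 4 of 5 same-numbered pairs (0.14, 0.18, 0.22, 0.23 and 0.02), and 4 of 5 deprived arrays correlated best with their own number. With the replicate number as a block, Hdac3 had an unadjusted limma p of 0.0261 (adjusted p of 0.754). It was higher in the deprived array of all 5 numbers. Mbd1 had an unadjusted limma p of 0.0499 (adjusted p of 0.787) and was lower in all 5. The share of all probe sets with such an unadjusted p, or with 1 direction in all 5 numbers, was not counted. The block moved the count of calls over all probe sets from 0 to 6; it was 2 with a pseudocount of 64, 2 with the stricter filter and 0 to 5 with single arrays left out (5 without non-deprived replicate 1, 1 without deprived replicate 4). The dim signals of Mbd2 and of the second Dnmt1 and Dnmt3a sets limit what can be said of them, since no background measure was used.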
